A study of Homo sapiens with 4 samples.

Results

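IL24 is one of the IL-20 subfamily of cytokines, and the genes described here are IL24 with its closest relatives IL20 and IL19 and the receptor chains IL20RA, IL20RB, IL22RA1 and IL10RB. These 7 genes were chosen by name, because the IL24 signal was far higher in 1 control array than in the other arrays. All 7 were measured, each by 1 probe set, among the 18417 genes of the array that carry a single gene symbol. The difference that led to the choice is given as a description, without a test.

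IL-20 subfamily cytokines are made by epithelial and immune cells and act mainly on epithelial cells, above all in skin. They signal through pairs of class II cytokine receptor chains. IL20RA with IL20RB binds the products of IL19, IL20 and IL24, and IL22RA1 with IL20RB binds those of IL20 and IL24. IL10RB is the shared chain that pairs with IL22RA1 to bind IL-22 and with IL10RA to bind IL-10. The bound receptors act through JAK kinases and STAT3, which in keratinocytes raises antimicrobial proteins and stress keratins and holds back terminal differentiation.

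The cells were HCE, which the labels call a cell line of undifferentiated cells, in a series on the corneal epithelium. Total RNA was measured on 4 whole-transcript arrays. In 2 samples, scramble control replicates 1 and 2, the cells carried a control siRNA pool, and in 2 samples, siKLF7 replicates 1 and 2, a pool against KLF7, a zinc finger transcription factor. All 4 samples shared the medium, a plating of 100000 cells per well, siRNA at 20 nM and collection at 48 hours, and no untransfected sample was analysed here. The labels do not say that the samples of a group were separate cultures, and the spread behind each p-value may therefore be technical only.

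Scramble control replicate 1 stood apart. Across genes it correlated with the other arrays at r = 0.934 to 0.938, while the other 3 correlated with each other at 0.990 to 0.994. The median deposited signals lay between 185 and 194. Of 11 measured markers of corneal epithelium, 10 were lower in scramble control replicate 1 than in every other array, against 31.4% of all genes. The list summed to a signal of 28780 there and to 40539, 45355 and 47736 in the others. The corneal keratin KRT3 stood at 0.00549 in that array and at 1440, 1873 and 2461 in the others, whereas the basal keratin KRT5 stood at 11828 against 12764, 13229 and 13575. The comparison of siKLF7 with control is therefore given with and without that array. KLF7, the targeted gene, had signals of 4649 and 2911 with control siRNA and 1492 and 1122 with siKLF7. Both siKLF7 values lay below both controls. With 4 arrays the log2 difference of KLF7 was -1.50 (SE 0.28) and did not pass, with limma's adjusted p at 0.64. Without scramble control replicate 1 it was -1.16 (SE 0.13).

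IL19, IL20 and IL24 lie next to each other on chromosome 1, with 0 other protein-coding genes listed between them. The bases before their starts are printed here because the genes are close relatives and neighbours whose signals differed in scramble control replicate 1 by unequal amounts. The sequences are from RefSeq, build GRCh38.p14, plus strand, 5′ to 3′, and each covers the 250 bases before the first listed start of the gene. All 7 genes had an entry. Capitals mark matches to the motifs named after the sequences.
IL24, chr1:206897193-206897442: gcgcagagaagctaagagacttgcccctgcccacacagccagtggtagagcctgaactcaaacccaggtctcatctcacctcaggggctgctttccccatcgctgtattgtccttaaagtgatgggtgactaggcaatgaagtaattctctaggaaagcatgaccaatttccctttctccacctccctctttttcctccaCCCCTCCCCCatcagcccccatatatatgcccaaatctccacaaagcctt
IL20, chr1:206865373-206865622: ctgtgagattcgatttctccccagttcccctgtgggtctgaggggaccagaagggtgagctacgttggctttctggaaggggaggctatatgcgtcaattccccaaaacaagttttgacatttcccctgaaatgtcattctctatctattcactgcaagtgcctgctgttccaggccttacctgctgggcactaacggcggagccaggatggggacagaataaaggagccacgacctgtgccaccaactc
IL19, chr1:206834099-206834348: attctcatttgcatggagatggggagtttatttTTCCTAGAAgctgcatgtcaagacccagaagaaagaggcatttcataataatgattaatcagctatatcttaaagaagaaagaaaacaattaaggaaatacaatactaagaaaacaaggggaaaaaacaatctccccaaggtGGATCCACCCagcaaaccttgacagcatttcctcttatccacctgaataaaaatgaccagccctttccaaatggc

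The windows were searched on both strands for 6 motifs, and the share of 27305 promoters of the same length with a match is given for each. The motifs were an AP-1 site, TGANTCA (6.84% of promoters), a C/EBP site, TTGCNNAA (9.36%), an NF-kB site, GGG and CC with 5 free bases between them (53.3%), a STAT site, TTCNNNGAA (6.80%), a KLF-type site, CCNCNCCC (52.0%), and the TATA box letters TATAAA (11.4%). In the IL24 window only the KLF-type letters matched, in 2 overlapping places that begin 50 and 48 bases before the start. The IL20 window held no match to any of the 6. The IL19 window held 1 STAT match, 217 bases before the start, and 1 NF-kB match on the minus strand, 75 bases before it. A match describes the letters of these windows only, and binding was not measured.

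IL24 itself had a signal of 6341 in scramble control replicate 1, 143 in scramble control replicate 2, and 113 and 108 in siKLF7 replicates 1 and 2. One control array was thus high, and the other control lay near the siKLF7 arrays. Signals were compared as log2(signal + 16), where 16 is a pseudocount that damps the changes of dim genes. On this scale scramble control replicate 1 exceeded the other 3 arrays' mean by 5.54, or 46.5-fold. The other 3 had an SD of 0.19 (log2, n = 3). Ranked by this difference, IL24 was number 3 of 18417 genes. ADGRG7, an orphan receptor gene of the adhesion class, and ANPEP, a cell-surface aminopeptidase, ranked above it at 7.71 and 6.03; both were named after their values were seen.

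IL20 and IL19, the relatives that bind the same receptor pair, were also higher in scramble control replicate 1, by far less. The IL20 signal was 129 there and 67.0, 67.3 and 80.4 in scramble control replicate 2 and siKLF7 replicates 1 and 2. Its difference was 0.73 on the log2 scale. IL19 stood at 58.1 against 42.2, 42.8 and 45.9, a difference of 0.31. Both genes belonged to the dimmest 25% of genes by mean log2 level, and no detection call was used here.

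All 4 receptor chains pointed the other way, with scramble control replicate 1 below every other array. IL20RA, the chain that completes the receptor for all 3 cytokines, had the lowest relative level, with a signal of 55.0 there against 162, 193 and 193. The difference was -1.48 on the log2 scale, with the other 3 arrays 2.79-fold higher. IL20RB, the chain common to both receptors of IL24, stood at 2221 against 3532, 3581 and 4090, a difference of -0.74. IL22RA1, the partner of IL20RB in the second IL24 receptor, stood at 172 against 322, 282 and 258, a difference of -0.68. For IL10RB the signal was 669 against 805, 826 and 785, and the difference was -0.26.

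**Figure D1:**
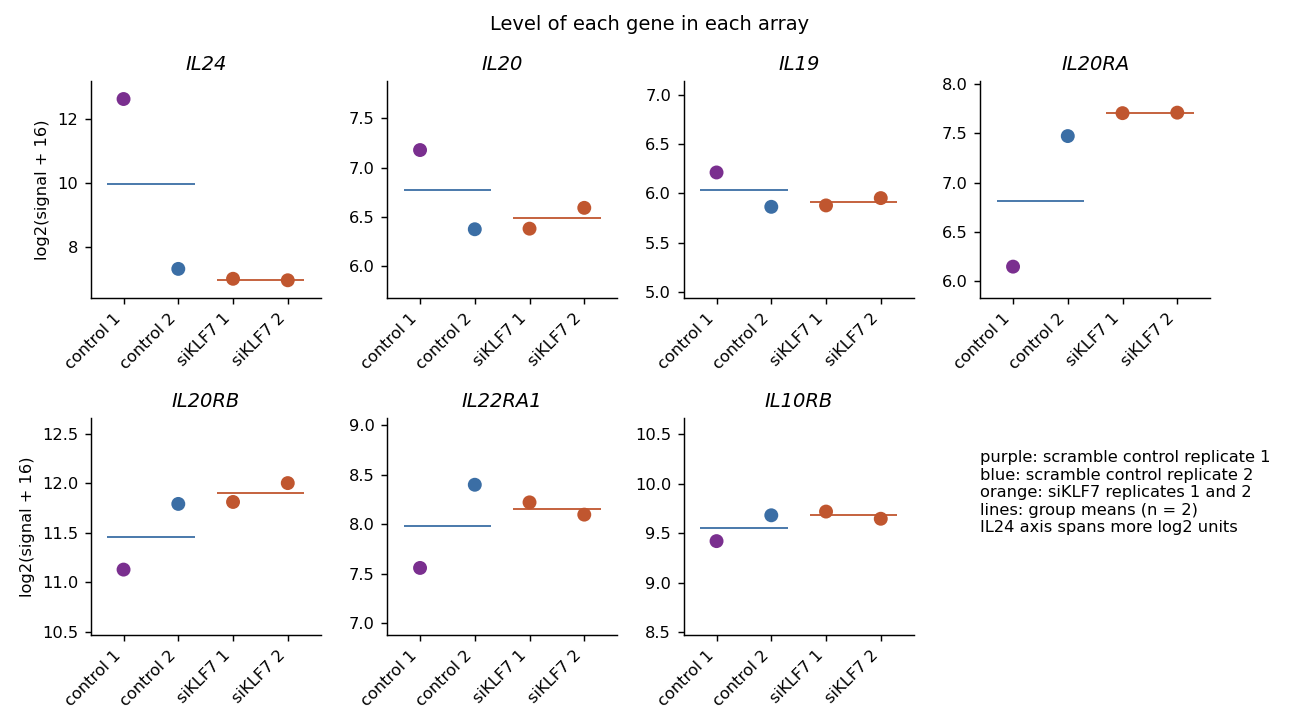
Each panel plots 1 gene as log2(signal + 16) in the 4 arrays, with points for arrays and lines for group means (n = 2); all panels but that of IL24 span the same number of log2 units. Scramble control replicate 1 is the highest array for IL24, IL20 and IL19 and the lowest for the 4 receptor genes.

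IL24 and IL20RA were the members that differed by at least 2-fold between scramble control replicate 1 and the mean of the other 3 arrays, 1 higher and 1 lower. Among all genes, 389 (2.11%) were at least 2-fold higher and 551 (2.99%) at least 2-fold lower there. That array lay above all others for 3 members and below all others for 4, against 38.3% and 31.4% of all genes. The median difference of the members was -0.26, and that of all genes 0.04. With 1 array on one side there is no replicate and no test, and IL24 was chosen on this difference.

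**Figure D2:**
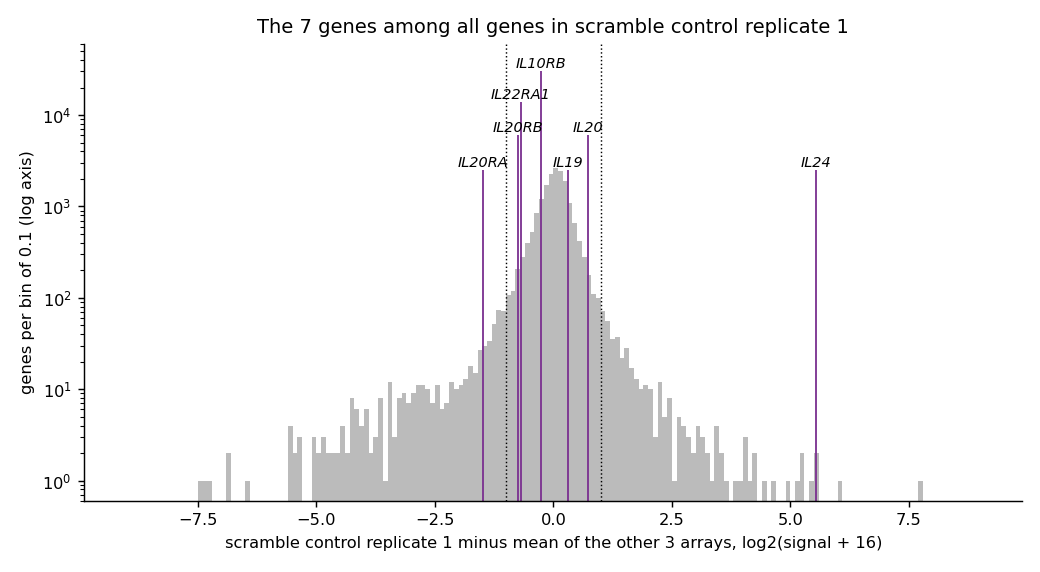
The grey histogram counts all 18417 genes, on a log axis, by scramble control replicate 1 minus the mean of the other 3 arrays in log2(signal + 16); purple lines mark the 7 genes and dotted lines a 2-fold difference. IL24 lies at 5.54, in the thin upper tail, and IL20RA at -1.48, while the other 5 genes lie within 2-fold.

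The series asks what differs between siKLF7 and scramble control cells. No tested member passed in either fit. IL24 was not tested with 4 arrays, a fit in which KLF7, the targeted gene, did not pass either. With all 4 arrays, limma called 0 of the 6 members other than IL24 and 0 of 18417 genes (0%) at an adjusted p under 0.05. At an unadjusted p under 0.05, 0 of the 6 and 1069 genes (5.80%) were counted. Without scramble control replicate 1, the test called 0 of 7 members and 290 genes (1.57%), and 1 member and 2079 genes (11.3%) had an unadjusted p under 0.05. That second fit compares both siKLF7 arrays with a lone control, which is assumed to vary like the siKLF7 pair.

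The member counted above in the fit of 3 arrays was IL24. The siKLF7 signals of 113 and 108 lay below the 143 of scramble control replicate 2. The log2 difference was -0.33 (SE 0.16), with limma's adjusted p at 0.41. With 4 arrays the difference was -2.99, which is the pattern that led to the choice of IL24. Both siKLF7 arrays lay below both controls.

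IL20RA and IL20RB had both siKLF7 values above both controls. The siKLF7 values of IL20RA, 193 and 193, stood above 162 and 55.0, a log2 difference of 0.90 (SE 0.45, limma adjusted p = 0.64) with 4 arrays. Without scramble control replicate 1 it was 0.23 (SE 0.16, limma adjusted p = 0.60). The siKLF7 values of IL20RB were 3581 and 4090 against 3532 and 2221, a log2 difference of 0.45 (SE 0.25, limma adjusted p = 0.64), or 0.12 (SE 0.10, limma adjusted p = 0.69) without that array. Of the 6 members other than IL24, these 2 had groups that did not overlap, against 45.2% of all genes. Both were higher in siKLF7, against 16.3% of all genes higher and 28.9% lower. IL24 is left out of this count because its pattern led to the choice. An exact two-sided permutation test of 2 arrays against 2 gave p = 0.333 for IL20RA and IL20RB, the smallest it can give.

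The remaining 4 members had overlapping groups, and their direction rested on scramble control replicate 1 for 3 of them. IL20 differed by -0.29 (SE 0.29) on the log2 scale with 4 arrays and by 0.11 (SE 0.16) without that array. IL19 differed by -0.12 (SE 0.15) and 0.05 (SE 0.17). IL22RA1 differed by 0.18 (SE 0.30) and -0.24 (SE 0.16), and its siKLF7 signals of 282 and 258 lay below the 322 of scramble control replicate 2. IL10RB, the shared chain, differed by 0.13 (SE 0.16) and 0.00 (SE 0.15). Limma's adjusted p was between 0.60 and 1.00 for these 4 genes in both fits. With 3 arrays the 95% intervals of the log2 difference ran from -0.21 to 0.44 for IL20, from -0.28 to 0.38 for IL19, from -0.56 to 0.08 for IL22RA1 and from -0.30 to 0.31 for IL10RB.

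**Figure D3:**
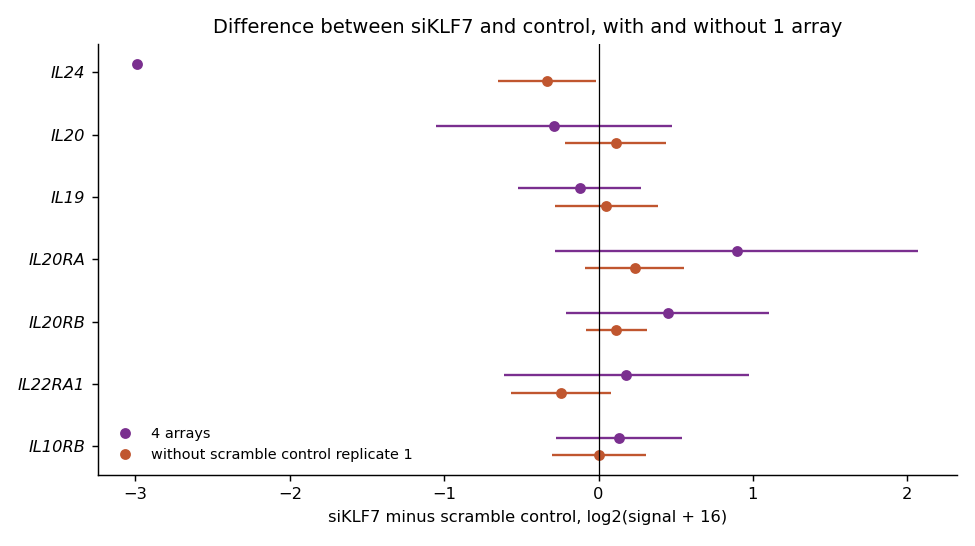
Points give siKLF7 minus scramble control in log2(signal + 16) for each gene, with all 4 arrays (purple) and without scramble control replicate 1 (orange), and bars give 95% intervals from limma; the 4-array value of IL24 has no bar because IL24 was chosen on it. Every drawn interval includes 0 except that of IL24 with 3 arrays, from -0.65 to -0.01, whose adjusted p was 0.41.

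Genes around the receptors were taken from 7 lists. Of 6 other cytokines of the IL-10 family, 0 passed in either fit, and none was 2-fold apart in scramble control replicate 1. The interferon lambda gene IFNL1 stood at 262 and 265 in controls against 196 and 249 in siKLF7 arrays, and IL22 at 60.1 and 41.4 against 41.3 and 29.4. Their log2 differences with 3 arrays were -0.25 (SE 0.16) and -0.17 (SE 0.17). Of 8 other class II receptor genes, 0 passed in either fit. IFNAR1, a chain of the type I interferon receptor, stood at 590 and 587 in controls against 785 and 686 in siKLF7 arrays (log2 difference 0.31, SE 0.16, limma adjusted p = 0.44, with 3 arrays). The soluble IL-22 inhibitor IL22RA2 stood at 52.2 and 42.5 against 34.9 and 34.1.

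Of 17 measured genes of JAK-STAT signalling, 0 passed in either fit, and the list median was -0.05 with 4 arrays and -0.03 with 3. Medians of all genes were -0.05 and -0.04. SOCS2, a feedback inhibitor of cytokine receptors, had the smallest p of the list, with signals of 263 and 191 in controls against 162 and 107 in siKLF7 arrays (log2 difference -0.49, SE 0.17, limma adjusted p = 0.16, with 3 arrays). SOCS3, the feedback inhibitor of STAT3, and STAT3 itself did not pass either. PIM1, a kinase gene, was the 1 member of this list at least 2-fold apart in scramble control replicate 1. It stood at 315 there against 906, 955 and 1191 in the others. The shares of all genes at least 2-fold higher and lower in that array were 2.11% and 2.99%. SOCS3, STAT3 and PIM1 were named after their values were seen.

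Cytokines and factors known to induce IL24 or to bind its promoter, with close relatives, numbered 16, and 0 passed in either fit. In scramble control replicate 1, IL1B and TNF, inflammatory cytokines, were the 2 members at least 2-fold higher, and 0 were 2-fold lower. Among all genes, 2.11% were at least 2-fold higher and 2.99% at least 2-fold lower there. That array lay above all others for 8 of the 16 and below all others for 7, against 38.3% and 31.4% of all genes. IL1B stood at 8070 in that array and at 1486, 1156 and 1072 in the others, a log2 difference of 2.70. TNF, named after its values were seen, stood at 455 against 118, 92.1 and 114, a difference of 1.93. With 3 arrays IL1B differed between siKLF7 and control by -0.41 (SE 0.14, limma adjusted p = 0.15, or 0.044 with quantile normalization and 0.076 to 0.28 in the other settings). ATF3, an AP-1 partner, differed by -0.48 (SE 0.16, limma adjusted p = 0.15), and RELA, an NF-kB subunit, by -0.29 (SE 0.13, limma adjusted p = 0.35). Of 12 stress, growth arrest and survival genes tied to IL24 protein, 0 passed. MCL1, a survival protein, and XBP1, a factor of the unfolded protein response, came nearest, at -0.40 (SE 0.12) and -0.41 (SE 0.12), with limma adjusted p at 0.056 and 0.060. They passed with quantile normalization, median centring or either filter on dim genes, where their adjusted p ran from 0.0076 to 0.049, and stood at 0.30 and 0.31 with no intensity trend. GADD45A, a growth arrest gene, differed by -0.44 (SE 0.14, limma adjusted p = 0.11) and passed with quantile normalization alone, at -0.46 (limma adjusted p = 0.027), so that setting called 3 of the 12.

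Epidermal genes known to respond to IL-20 subfamily cytokines or IL-22 moved in the fit of 3 arrays, where 0.885% of all genes rose and 0.690% fell. Of 15 measured genes known to be raised by these cytokines, 8 fell and 0 rose, with a list median of -0.63. In this fit the lone control is assumed to vary like the siKLF7 pair. S100A7, an antimicrobial protein, fell by 1.57 on the log2 scale (SE 0.17). PI3, a protease inhibitor of inflamed epidermis, fell by 0.64 (SE 0.08) and LCN2, an iron-sequestering protein, by 0.98 (SE 0.15). For these 3 genes scramble control replicate 1 lay below every other array. Signals were 109, 176 and 264 there against 594, 7298 and 1477 in scramble control replicate 2. The list was split in that array. Of the 15 genes, 9 were at least 2-fold lower there and 3 at least 2-fold higher, against 2.99% and 2.11% of all genes. With 4 arrays the list median was 0.23 and 0 passed. CCL20, a chemokine, and MMP1, a collagenase, were the 2 of the 8 with both siKLF7 values below both controls. Of all genes, 28.9% had both siKLF7 values below both controls. MMP1 stood at 3436 and 271 in controls against 144 and 156 in siKLF7 arrays. CCL20 stood at 685 and 291 against 184 and 181. Both were named after their values were seen.

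Of 8 measured differentiation genes known to be lowered by these cytokines, 4 rose and 0 fell with 3 arrays, and the list median was 0.40. KRT10, a keratin of differentiating epidermis, rose by 0.94 (SE 0.09), the desmosomal gene DSC1 by 1.14 (SE 0.16) and KRT1 by 0.74 (SE 0.14). All 8 were at least 2-fold lower in scramble control replicate 1, against 2.99% of all genes. The list summed to a signal of 534 in that array against 9164, 12338 and 13235 in the others. KRT10 stood at 13.0 there, below the pseudocount, and at 2976, 5508 and 5959 in the others. With 4 arrays the median was 1.77 and 0 passed. The marker lists were also counted. Of the 11 corneal epithelium markers, 6 were at least 2-fold lower in scramble control replicate 1, against 2.99% of all genes. In the same fit of 3 arrays 5 of the 11 corneal epithelium markers rose and 0 fell, with a list median of 0.27. KRT12, the other corneal keratin, rose by 0.81 (SE 0.12) and KRT15, a basal keratin, by 0.85 (SE 0.13). The remaining ones were ALDH3A1, KRT3 and CLU. Of the 13 stromal fibroblast markers POSTN and LUM differed by 0.86 and 0.64 with 3 arrays, and the list median was -0.10. POSTN stood at 678 in scramble control replicate 1, 25.4 in scramble control replicate 2, and 77.4 and 44.1 in siKLF7 arrays. With 4 arrays its difference was -1.18. LUM stood at 25.1 and 34.6 in controls against 63.5 and 62.4 in siKLF7 arrays. Both genes were dim in the 3 arrays of that fit. These genes were named after their values were seen. The response genes thus differed between the control arrays themselves, and the part of the IL24 level in any of these values was not tested.

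**Figure D4:**
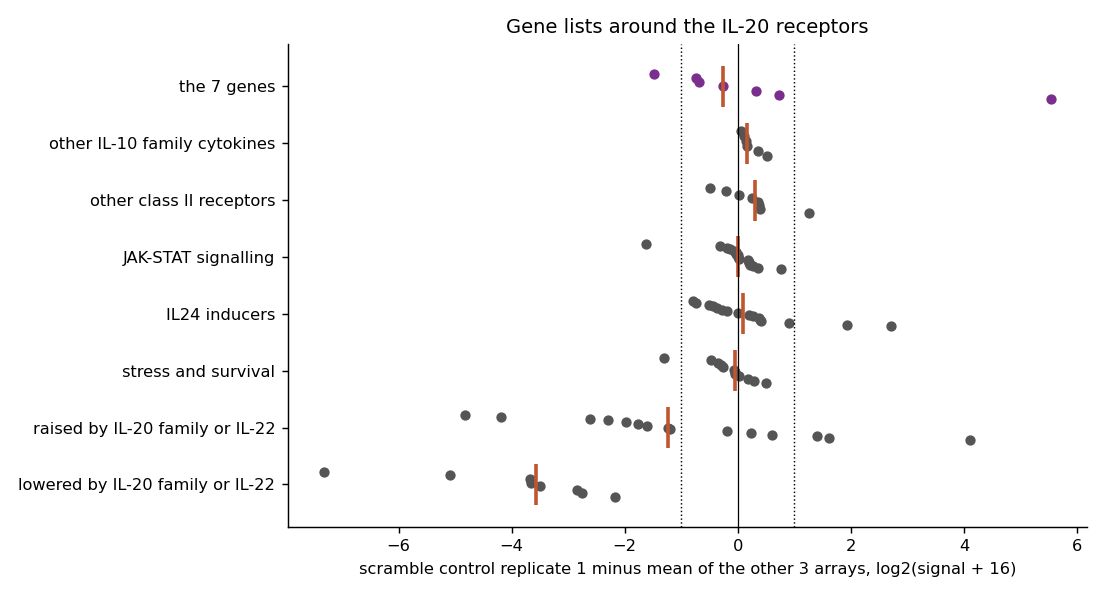
Each point is 1 gene, placed by scramble control replicate 1 minus the mean of the other 3 arrays in log2(signal + 16), with 1 row per list, orange bars for list medians and dotted lines at a 2-fold difference. The medians of the 2 epidermal lists are -1.24 and -3.57, and those of the other 5 lists lie between -0.06 and 0.31.

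The IL24 pattern was next set against every other gene. The likeness was the root-mean-square distance over the 4 arrays, after each gene was centred on its mean in scramble control replicate 2 and the siKLF7 arrays. This distance rests largely on the scramble control replicate 1 difference, on which IL24 was chosen. The nearest genes were those ranked 4 to 8 by that difference, directly below IL24, and the likeness is a description only. The 5 nearest genes were VCAN, a matrix proteoglycan (distance 0.09), HLA-DPB1, a chain of an MHC class II molecule (0.09), MRGPRX3, an orphan receptor (0.20), NRCAM, a neural cell adhesion protein (0.20), and ACTG2, a smooth muscle actin (0.25). VCAN stood at 2310 in scramble control replicate 1 and at 38.9, 36.2 and 29.0 in the others, and ACTG2 at 29378 against 811, 766 and 860. On the scale with the pseudocount the 5 genes were 35.5-fold to 46.0-fold higher in that array. The value of HLA-DPB1 rested on the choice of probe set, since its log2 difference of 5.44 became 1.71 with the mean of its probe sets, and it belongs to a family of similar genes that an array may not separate. That of ACTG2, 5.15, became 4.53 with quantile normalization.

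Neighbouring genes on the chromosomes did not share the size of the IL24 difference. RefSeq's gene table, of assembly GRCh38.p14, gave the 2 nearest protein-coding genes on either side of the cytokine cluster and of each receptor gene, and 19 of the 20 were measured. Beside the cluster, MAPKAPK2, IL10, FCMR and PIGR differed in scramble control replicate 1 by 0.46, 0.11, 0.16 and 0.28 on the log2 scale. IL10, the founding cytokine of the family, stood at 81.4 in that array and 73.8, 71.5 and 76.9 in the others. Among all measured neighbours the difference ran from -1.58 for GRHL3, an epithelial transcription factor beside IL22RA1, to 1.25 for IFNAR2, a type I interferon receptor chain beside IL10RB. IFNAR2 stood at 309 against 118, 128 and 115, opposite in direction to IL10RB. IFNAR1 and IFNGR2, on the other side of IL10RB, differed by -0.20 and 0.03, and IL10RB itself by -0.26.

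**Figure D5:**
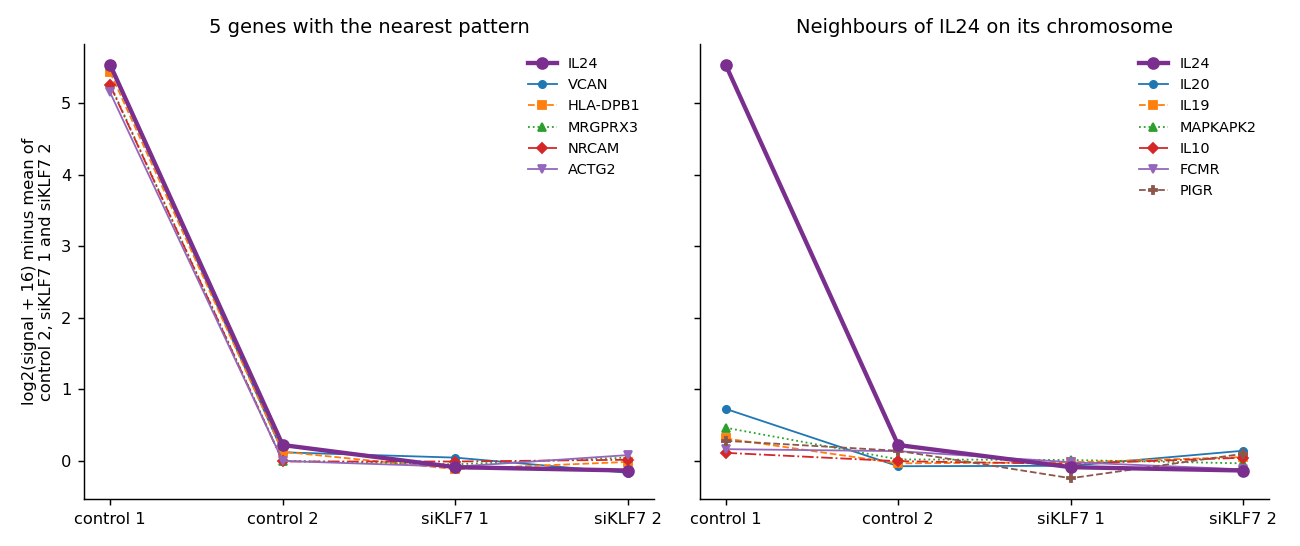
Lines give log2(signal + 16) in each array minus the mean of scramble control replicate 2 and the siKLF7 arrays, for IL24 with its 5 nearest genes (left) and with IL20, IL19 and the 4 genes that flank the cluster (right). The nearest genes are those ranked directly below IL24 by the scramble control replicate 1 difference. The 5 nearest genes reach 5.15 to 5.52 in scramble control replicate 1 with the probe sets used (HLA-DPB1 1.71 with the mean of its probe sets, ACTG2 4.53 with quantile normalization), and the genes of the right panel other than IL24 reach 0.11 to 0.73.

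Markers of other cell types were summed in each array. Of 13 markers of stromal fibroblasts, 3 (FN1, POSTN and THY1, named after their values were seen) were at least 2-fold higher in scramble control replicate 1, and the list summed to 11118 there against 3293, 3810 and 3721. Among all genes, 2.11% were at least 2-fold higher there. FN1 stood at 6544 in scramble control replicate 1 against 543, 596 and 612, the largest part of the list's sum in that array. The markers other than FN1, POSTN and THY1, among them the collagen genes COL1A1, COL1A2 and COL3A1, were within 2-fold. The 9 leukocyte markers summed to 2810 against 2482, 2177 and 2261, the 6 melanocyte markers to 989 against 972, 862 and 944, and the 8 endothelial markers to 1713 against 1556, 1373 and 1464. No gene of these last 3 lists was 2-fold apart. Melanocytes and leukocytes are known sources of IL24. In bulk RNA, fewer cells of a type and less RNA per cell cannot be told apart, and the part of other cells in the IL24 signal was not tested.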

How the data were processed

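The authors deposited 1 table of linear array intensity values, 1 per probe set and array, for which the submitters' processing notes name PLIER 2.0 and Affymetrix Expression Console 1.1.1. The sources used here do not give the scaling between arrays. Of 33297 probe sets, 19460 carried 1 gene symbol in the platform annotation, and for the 769 genes with several the one with the highest mean log2 level was kept. Values were analysed as log2(signal + 16) by lmFit and eBayes, with the prior following intensity (limma 3.58.1, R 4.3.3), with Benjamini-Hochberg adjustment over 18417 genes and a threshold of 0.05. Residual degrees of freedom were 2 with 4 arrays and 1 with 3, and prior degrees of freedom 2.63 and 74.2. The number of arrays limits the precision. The members and gene lists were chosen with earlier results of these data known. Of 140 list entries, 129 were matched and the other 11 were not analysed here. Beside the 7 members and KLF7, the text names up to 3 genes of each pathway list by unadjusted p with 3 arrays, the 5 genes nearest to IL24 and chromosomal neighbours, and says where a gene was named otherwise. The fits were run on simulated data with independent noise and no deviating array, which cannot test the spread assumed for the lone control. Same-numbered samples deviated together at r = -0.04 and differently numbered ones at 0.04. With 2 arrays per group these values mirror each other, and they cannot exclude that the numbers pair samples. The main fits did not use the numbers as pairs. Figures were drawn with matplotlib 3.10.9.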

Additional observations from a re-analysis of the deposited data

How the results depend on the processing

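The alternatives were quantile normalization, median centring, a pseudocount of 1 or 32, the mean of probe sets, leaving out the dimmest 25% or 50% of genes, no intensity trend, an adjusted p threshold of 0.10, the replicate block and leaving out each array. The 4-array fit called 0 genes and 0 of 6 members under every one of these except leave-one-out, where genes called ran from 0 to 4935 and members called from 0 to 4. The highest counts came without scramble control replicate 2, when scramble control replicate 1 was the lone control, and 290 genes were called without scramble control replicate 1. With the replicate block the 4-array fit also called 0 genes. Over the leave-one-out fits the log2 difference ran from -0.69 to 0.11 for IL20, from -0.30 to 0.051 for IL19 and from -0.24 to 0.60 for IL22RA1, and each changed sign without scramble control replicate 1. With 3 arrays, 290 genes became 478 with quantile normalization and 172 with no intensity trend, while 0 of 7 members were called in all settings run. The 8 epidermal genes that fell became 5 without the dimmest 50%, where fewer genes of that list were tested. IL10RB, at 0.00, turned to -0.032 with quantile normalization. The IL24 difference in scramble control replicate 1 ran from 5.38 to 5.71 across all settings. IL20 and IL19 dropped out of both filters on dim genes and IL20RA and IL22RA1 out of the stricter one, as did IL24 with 3 arrays, so these have no value there. The cause of these changes was not tested. The pseudocount of 16 is not small beside the IL20 and IL19 signals.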
